A study of Mus musculus with 6 samples.

Results

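The 10 genes described here encode histone demethylases with a Jumonji C (JmjC) domain, the catalytic domain that uses iron and 2-oxoglutarate: Kdm5a, Kdm5b, Kdm5c, Kdm2a, Kdm2b, Kdm4a, Kdm4b, Kdm4c, Kdm3a and Kdm6a. They were chosen by name, and every probe was taken whose platform annotation gives one of these symbols or an older alias, which found 35 of the 45281 probes on the array and at least 1 probe for each gene. RNA came from mouse E14 embryonic stem cells, a line of strain 129/Ola, in 2 Lsd1 (current symbol Kdm1a) genotypes with 3 Illumina bead arrays each. Δ3/Δ3 cells lacked exon 3 of Lsd1 on both alleles. Lox/Δ3 cells, the controls, carried 1 deleted allele as well and kept an intact allele whose exon 3 was flanked by loxP sites, so both genotypes shared the deleted allele and no wild-type cells were measured. The design text of the series calls the 3 samples of a genotype biological replicates. How the deletion was induced, how long before RNA collection, and whether these samples were separate clones is not given in the sources used here. The p-values given here therefore cover only how these samples vary among themselves.

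LSD1 demethylates histone H3 at lysine 4 by a flavin-dependent reaction that works on the mono- and dimethylated residue and cannot act on the trimethylated one. JmjC demethylases are an unrelated enzyme family whose reaction also works on trimethylated lysines, and they divide by residue. The KDM5 enzymes act on lysine 4 of H3, the same residue as LSD1. The KDM2 enzymes act on lysine 36, the KDM4 enzymes on lysines 9 and 36, KDM3A on lysine 9 and KDM6A on lysine 27. The comparison asks whether transcripts of these enzymes differed in cells that had lost the intact Lsd1 allele.

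None of the 10 genes (0) was called between the genotypes in limma after Benjamini-Hochberg adjustment over 10712 genes at a threshold of 0.05, where 1.31% of all genes were called. At an unadjusted p under 0.05 stood 1 member, Kdm4b, against 18.2% of all genes. The log2 difference between the genotypes, Δ3/Δ3 minus Lox/Δ3, was negative for 8 members and positive for 2, with a median of -0.09, while over all genes the median was -0.03 and 53.6% were negative. The arrays of the genotypes did not overlap for 2 members, Kdm4b, lower in Δ3/Δ3, and Kdm5b, higher, against 23.8% of all genes. The largest positive difference in the set was that of Kdm5b, at 1.19-fold. On the 1 probe tested per gene, no member (0) had a 95% interval that reached 1.5-fold higher. These intervals are per gene and not adjusted for the number of genes. For 7 members the whole interval lay within 1.5-fold in either direction, and for the 3 KDM4 genes it passed 1.5-fold on the lower side. Of these, Kdm4a rests on a probe detected on 1 of 3 Δ3/Δ3 arrays. Some further kept probes had intervals past 1.5-fold as well, on the higher side for Kdm5b and on the lower side for Kdm2b and Kdm3a.

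**Figure D1:**
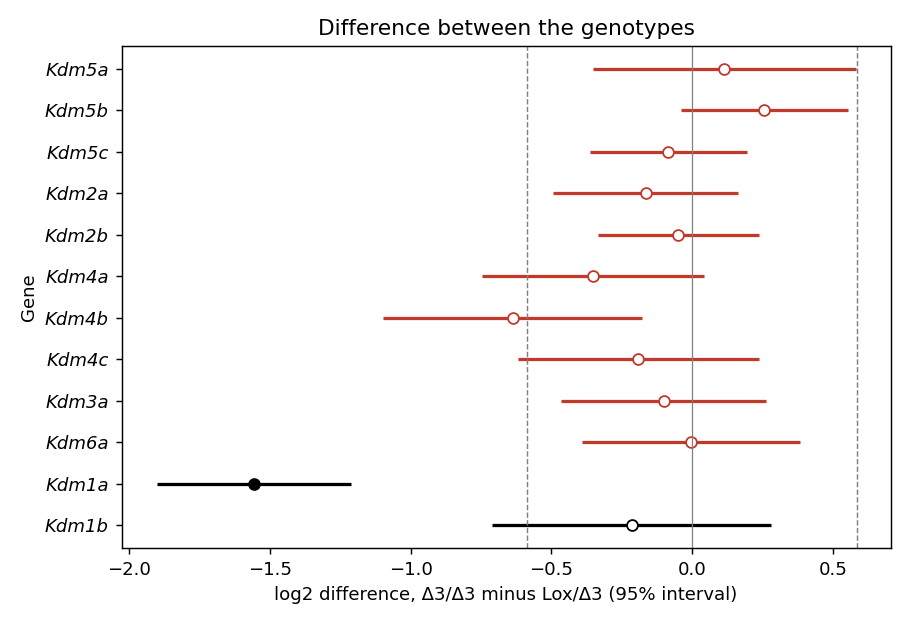
Log2 difference, Δ3/Δ3 minus Lox/Δ3, of each JmjC demethylase gene (red) and of the flavin-dependent Kdm1a and Kdm1b (black), with the 95% interval from limma on 3 arrays per genotype; filled points have an adjusted p under 0.05, open points do not, and dashed lines mark 1.5-fold. Kdm1a, at -1.56, is the filled point, and no JmjC interval crosses the right-hand line.

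The arrays were checked with the targeted gene and with cell markers. The Kdm1a probe had raw signals of 1624, 1047 and 1339 in Δ3/Δ3 cells, against 5352, 3397 and 4026 in Lox/Δ3 cells, a log2 difference of -1.56 ± 0.15 (SE; limma adjusted p = 0.0130). Whether that probe lies in the deleted exon was not examined, so its level checks the labels and not the deletion itself. Each array detected 18506 to 19799 probes. The 10 listed embryonic stem cell markers were all tested, 5 higher and 5 lower, and none (0) was called, had an unadjusted p under 0.05 in limma or had separate arrays. Utf1 was at -0.41, Pou5f1 at -0.22 and Nanog at 0.06 (limma adjusted p = 0.335, 0.451 and 0.887). The summed normalized linear signals of these markers did not overlap, spanning 87963 to 89077 on Δ3/Δ3 arrays and 92005 to 98581 on Lox/Δ3 arrays. Such sums weigh the brightest gene most, here Dppa5a, whose own arrays overlapped. It read 15.35, 15.26 and 15.23 on the Δ3/Δ3 arrays and 15.40, 15.51 and 15.26 on the Lox/Δ3 arrays. Of other cells' markers, 4 of 10 fibroblast, 7 of 10 endoderm, 6 of 9 trophectoderm and 3 of 7 neural genes were tested. None (0) was called, against 1.31% of all genes. An unadjusted p under 0.05 in limma was found for 2 fibroblast, 1 endoderm, 3 trophectoderm and 1 neural gene, against 18.2% of all genes. The arrays were separate for 2 fibroblast, 0 endoderm, 2 trophectoderm and 1 neural gene, against 23.8% of all genes. The summed signals of the tested fibroblast genes did not overlap either, spanning 2784 to 3817 on Δ3/Δ3 arrays and 1496 to 1992 on Lox/Δ3 arrays. Mmp2, the brightest of these genes, weighs most in them. How often such sums separate over all genes was not computed. For endoderm genes the sums spanned 3517 to 5137 on Δ3/Δ3 arrays and 3432 to 14438 on Lox/Δ3 arrays. The upper end was Lox/Δ3 array 3. There Col4a1 read 12.73 and Lama1 12.24, while Lox/Δ3 arrays 1 and 2 read 10.46 and 10.43 for Col4a1 and 10.40 and 10.35 for Lama1. Gata6, Sox17, Sox7 and Dab2 were also highest of the Lox/Δ3 arrays on array 3, and Gata4 was not. For trophectoderm genes the sums were 7603 to 11093 on Δ3/Δ3 arrays and 6970 to 11074 on Lox/Δ3 arrays, and for neural genes 349 to 416 on Δ3/Δ3 arrays and 261 to 372 on Lox/Δ3 arrays. The fibroblast genes with the smallest p were Thy1 at 1.62 and Mmp2 at 0.97 (limma adjusted p = 0.0523 and 0.0599). Col1a1 was the 1 tested fibroblast gene on the lower side, at -0.67 (limma adjusted p = 0.596), while the probes of Col1a2, Col3a1, Dcn, Lum, Pdgfrb and Postn stayed below the detection filter, as did those of Foxa2, Afp, Ttr, Cdx2, Elf5, Hand1, Pax6, Sox1 and Neurog2. Sox7 at -1.09 and Gata4 at -0.27, Eomes at 0.44 and Tfap2c at 0.87, and Map2 at 0.72 and Tubb3 at -0.29 stood first by p in the other lists (limma adjusted p from 0.0598 to 0.428). The trophectoderm genes did not share a direction, with 4 higher and 2 lower, Krt8 at -0.71 and Krt18 at -0.31 (limma adjusted p = 0.345 and 0.686). The part of such cells, or of the lower stem cell marker sums, in the JmjC values was not tested, and in bulk RNA fewer cells of a type and less RNA per cell cannot be told apart. In all 140 genes were called, 110 of them higher in Δ3/Δ3, and that count hung on single arrays: with any single Δ3/Δ3 array left out, limma called none (0), while between 1550 and 1796 genes still had an unadjusted p under 0.05. Leaving out Lox/Δ3 array 1, 2 or 3 left 44, 61 or 283 calls.

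Values below are given first as raw signals, which are linear, not background subtracted and set on arrays whose medians lay between 73.8 and 83.7, and then as normalized log2 values, from which every difference was taken. A probe counted as detected on an array when its deposited detection p was under 0.05. Of the 35 probes, 21 were detected on all 6 arrays and 7 on none. The filter of detection on at least 3 arrays kept 23 probes, with at least 1 for each gene, and 9 of the 10 genes had a probe detected on every array, the exception being Kdm4a. Each gene was represented in the test by its brightest kept probe. Signals of different probes were not compared, since probes differ in binding.

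**Figure D2:**
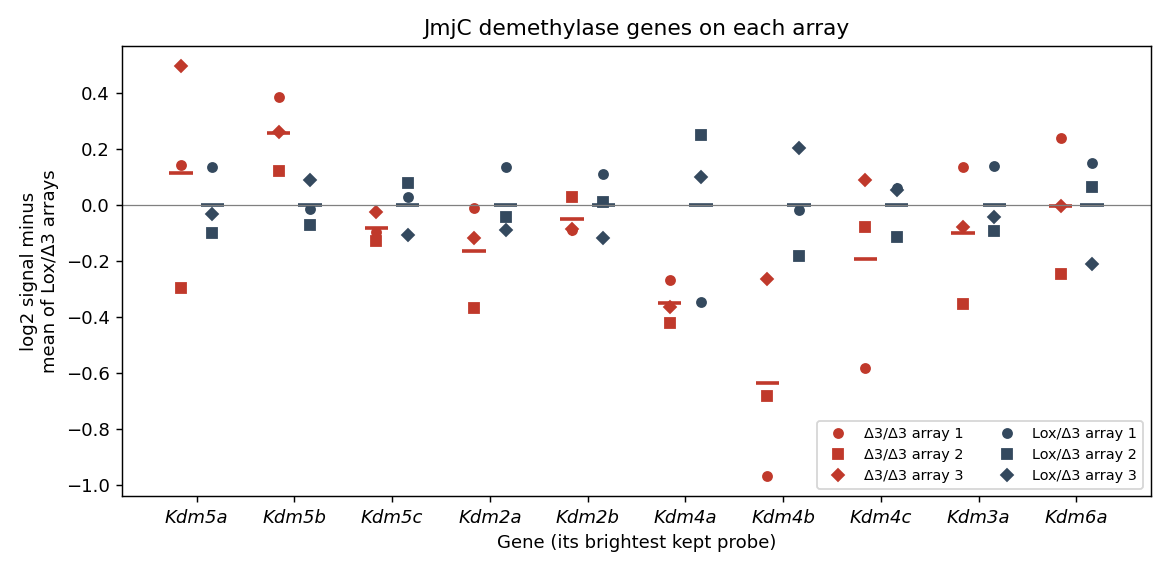
Normalized log2 signal of each gene on each array, as the distance from the mean of its 3 Lox/Δ3 arrays, with Δ3/Δ3 arrays in red on the left and Lox/Δ3 arrays in dark blue on the right; the short lines are group means. The 3 red points lie above all dark blue points for Kdm5b and below them for Kdm4b, and the groups overlap for the other genes.

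Among the KDM5 genes, Kdm5b encodes an enzyme that embryonic stem cells express and that removes di- and trimethylation of lysine 4. Its brightest probe (ILMN_1251270) had raw signals of 3790, 2570 and 3067 on the Δ3/Δ3 arrays, against 3356, 2522 and 2824 on the Lox/Δ3 arrays. The raw values overlapped. After normalization they were 11.79, 11.52 and 11.66 for the Δ3/Δ3 samples and 11.39, 11.33 and 11.49 for the Lox/Δ3 samples, so that the lowest Δ3/Δ3 array lay just above the highest Lox/Δ3 array. Kdm5b averaged 11.66 ± 0.13 across Δ3/Δ3 arrays and 11.40 ± 0.082 across Lox/Δ3 arrays (SD, n = 3 each), a difference of 0.26 ± 0.13 (SE; 95% interval -0.04 to 0.55; limma adjusted p = 0.345). Both further probes were detected on every array. ILMN_2777722 gave 0.26, like the brightest probe, and ILMN_2946020 gave -0.01, with overlapping arrays on both (limma adjusted p = 0.485 and 0.977 over the 19652 kept probes). The interval of the brightest probe leaves out a rise of more than 1.47-fold and includes no change. That of ILMN_2777722 reached 1.55-fold higher and also includes no change. The size depended on the scaling and the probes, being 0.13 with median scaling, 0.15 in the authors' value table and 0.17 as the mean of the 3 probes (limma adjusted p = 0.722, 0.648 and 0.543).

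Kdm5a encodes the retinoblastoma-binding member of the KDM5 group. It was measured by 5 probes, of which 3 passed the filter, all of them weak. The brightest, ILMN_1258652, had raw signals of 148, 111 and 170.0 in Δ3/Δ3 cells and 157, 125 and 131 in Lox/Δ3 cells, and the Δ3/Δ3 arrays surrounded the others, with array 3 highest of all and array 2 lowest of all. Its difference was 0.11 ± 0.20 (SE; limma adjusted p = 0.823), and without Δ3/Δ3 array 3 the sign turned, to -0.08. The second probe gave 0.09. The third, ILMN_1260558, gave -0.18, and its Δ3/Δ3 values of 5.63, 5.48 and 5.69 lay below the Lox/Δ3 values of 5.71, 5.73 and 5.91 (limma adjusted p = 0.534 over kept probes). The kept probes of Kdm5a therefore differed in sign, and the probe with separate arrays was on the lower side.

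Kdm5c, the X-linked KDM5 gene, was close to background. Its brightest probe (ILMN_2666640) read 116, 104 and 115 in Δ3/Δ3 cells and 129, 118 and 109.7 in Lox/Δ3 cells. The groups overlapped, with means of 6.03 ± 0.052 for Δ3/Δ3 and 6.11 ± 0.097 for Lox/Δ3 (SD, n = 3 each) and a difference of -0.08 ± 0.12 (SE; limma adjusted p = 0.771). A second kept probe, detected on 2 Δ3/Δ3 arrays and 1 Lox/Δ3 array, gave 0.05, and the third was detected on none.

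The SIN3 complex is a histone deacetylase complex in which KDM5A is found. Of 9 listed genes 8 were tested, 3 were higher and 5 lower in Δ3/Δ3, and none (0) was called in limma or had an unadjusted p under 0.05, against 1.31% and 18.2% of all genes. The arrays were separate for 2 of the 8, against 23.8% of all genes. Phf12, a PHD finger subunit, was at -0.23 and the scaffold gene Sin3a at -0.24 (limma adjusted p = 0.362 and 0.386). The median over the 8 genes was -0.08.

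KDM2A and KDM2B bind unmethylated CpG DNA through a CXXC zinc finger. Kdm2a (ILMN_1224664) had raw signals of 1817, 1154 and 1517 in Δ3/Δ3 cells and 2318, 1602 and 1597 in Lox/Δ3 cells. Normalized, the groups overlapped by Δ3/Δ3 array 1 alone, at 10.71, which lay between the Lox/Δ3 values of 10.86, 10.68 and 10.63, while Δ3/Δ3 arrays 2 and 3 read 10.35 and 10.60. The difference was -0.17 ± 0.14 (SE; 95% interval -0.49 to 0.16; limma adjusted p = 0.599). With median scaling it was -0.29, and without Δ3/Δ3 array 2 it was -0.06. The other Kdm2a probe was detected on 1 array of each genotype.

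Kdm2b had 7 probes, 5 of them detected on every array. Its brightest, ILMN_2479611, read 440, 402 and 422 in Δ3/Δ3 cells and 570.0, 434 and 419 in Lox/Δ3 cells. The normalized means were 8.61 ± 0.068 for Δ3/Δ3 and 8.66 ± 0.11 for Lox/Δ3 (SD, n = 3 each), and the difference of -0.05 ± 0.12 (SE; limma adjusted p = 0.877) was smaller than the SD of either group. Across the 5 kept probes differences ran from -0.30 to 0.04, all with overlapping arrays. Those 5 probes are annotated to transcript NM_013910. The 2 probes annotated to the other Kdm2b transcript in the annotation, NM_001003953, did not pass the filter: ILMN_2431638 was detected on 1 Lox/Δ3 array and ILMN_3069800 on none, so that transcript could not be compared.

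KDM2B brings the variant Polycomb complex PRC1.1 to CpG islands. All 9 listed partner genes were tested, 5 higher and 4 lower, with a median of 0.01 and 0 calls in limma, against 1.31% of all genes. An unadjusted p under 0.05 was found for 1 of the 9 and separate arrays for 1, against 18.2% and 23.8% of all genes. Bcor, which encodes a corepressor, was at 0.53 and Yaf2, whose arrays were separate, at 0.29 (limma adjusted p = 0.257 and 0.317).

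KDM4 enzymes remove di- and trimethylation from lysine 9, a mark of silent chromatin. Kdm4b had raw signals of 675, 678 and 991 on the Δ3/Δ3 arrays and 1477, 1044 and 1393 on the Lox/Δ3 arrays (ILMN_2990420). Every Δ3/Δ3 array was below every Lox/Δ3 array, although Δ3/Δ3 array 3 came close to Lox/Δ3 array 2: the normalized values were 9.24, 9.53 and 9.95 for Δ3/Δ3 against 10.19, 10.03 and 10.42 for Lox/Δ3. Means were 9.57 ± 0.35 for Δ3/Δ3 and 10.21 ± 0.20 for Lox/Δ3 (SD, n = 3 each). The difference was -0.64 ± 0.20 (SE), or 1.56-fold lower, with a 95% interval of -1.10 to -0.18 and a limma adjusted p of 0.147, so it did not pass the threshold. A weaker probe of the same transcript, ILMN_2650915, pointed the same way at -0.51. Its Δ3/Δ3 values were 6.08, 6.28 and 6.62 and its Lox/Δ3 values 6.89, 6.40 and 7.22, with an overlap from Δ3/Δ3 array 3 (limma adjusted p = 0.317 over kept probes). The third probe was detected on no array. Over the 17 alternatives tried, the Kdm4b difference stayed between -0.83 and -0.47 with a limma adjusted p from 0.0708 to 0.329.

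Kdm4c was measured by 1 probe (ILMN_2686994), with raw signals of 620, 717 and 888 in Δ3/Δ3 cells and 1096, 775 and 897 in Lox/Δ3 cells. Only Δ3/Δ3 array 1 stood apart, at 9.11 after normalization, while array 2 read 9.61, within the Lox/Δ3 values of 9.75, 9.58 and 9.75, and array 3 read 9.78, just above them. The difference of -0.19 ± 0.19 (SE; 95% interval -0.62 to 0.24; limma adjusted p = 0.643) rested on that array and was 0.00 without it. With array weights it was -0.08 and with median scaling -0.31.

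Kdm4a was at the edge of detection. Its 1 kept probe (ILMN_1229847) was detected on 1 Δ3/Δ3 and 2 Lox/Δ3 arrays, with raw signals of 93.8, 81.3 and 86.3 in Δ3/Δ3 cells and 95.7, 108 and 102 in Lox/Δ3 cells. These raw signals did not overlap. After normalization the groups overlapped, with Lox/Δ3 array 1 at 5.38, below Δ3/Δ3 array 1 at 5.46. The fitted difference was -0.35 ± 0.17 (SE; limma adjusted p = 0.328). With 2 of the 3 Δ3/Δ3 signals not above background by the detection p, the size of this difference is not settled, and it was -0.16 without background correction and -0.21 with an offset of 50. A second probe, ILMN_2468327, below the filter, was detected on none of the Δ3/Δ3 arrays and on 2 Lox/Δ3 arrays. Its raw signals were 81.3, 73.4 and 76.3 in Δ3/Δ3 cells and 93.5, 91.8 and 90.0 in Lox/Δ3 cells, which did not overlap, but with Δ3/Δ3 signals not well above background no fold is given. Where all probes were tested without a filter, its limma adjusted p was 0.136. The remaining Kdm4a probe was detected on no array. Kdm4d, the testis-type member of the group, had a probe on the array that did not pass the filter.

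KDM3A removes mono- and dimethylation of lysine 9. The brightest Kdm3a probe (ILMN_2707895) had raw signals of 3282, 1937 and 2520.2 in Δ3/Δ3 cells and 3878, 2602 and 2692 in Lox/Δ3 cells. After normalization array 1 of both genotypes read 11.60, and the other Δ3/Δ3 arrays read 11.11 and 11.38, beside 11.37 and 11.42 on the other Lox/Δ3 arrays. The difference was -0.10 ± 0.16 (SE; 95% interval -0.46 to 0.26; limma adjusted p = 0.797), and 0.03 without Δ3/Δ3 array 2. Both other kept probes were also lower, at -0.22 and -0.21, with 95% intervals of -0.63 to 0.19 and -0.65 to 0.22. A probe annotated to the cDNA AK049243, ILMN_2556191, passed detection on 2 Δ3/Δ3 arrays but on none of Lox/Δ3, with raw signals of 129, 62.7 and 101 for Δ3/Δ3 against 86.4, 84.6 and 69.8 for Lox/Δ3. The lowest of its 6 signals was on a Δ3/Δ3 array, so the genotypes overlapped.

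KDM6A, also called UTX, removes methylation of lysine 27, the mark set by Polycomb, and its gene is X-linked. Kdm6a read 1873, 1091 and 1437 in Δ3/Δ3 cells and 2040, 1504 and 1288 in Lox/Δ3 cells on its brightest probe, ILMN_2447456. Normalized means were 10.51 ± 0.24 for Δ3/Δ3 and 10.52 ± 0.19 for Lox/Δ3 (SD, n = 3 each), and the difference of 0.00 ± 0.17 (SE; 95% interval -0.39 to 0.38; limma adjusted p = 0.994) had no stable sign, being positive with cyclic loess and without Δ3/Δ3 array 2, Lox/Δ3 array 1 or Lox/Δ3 array 2. A second bright probe, ILMN_2506528, gave -0.05. Probes annotated to the cDNAs AK045533 and AK080370 did not pass the filter. Of 9 partners in the COMPASS-type H3K4 methyltransferase complexes that hold KDM6A, 7 were tested, 2 higher and 5 lower, with a median of -0.07 and 0 calls in limma, against 1.31% of all genes. The arrays were separate for 1 of the 7 and an unadjusted p under 0.05 was found for 2, against 23.8% and 18.2% of all genes. These 2 were the core subunit gene Wdr5 at -0.37, with separate arrays, and Ncoa6 at -0.62 (limma adjusted p = 0.187 and 0.218).

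**Figure D3:**
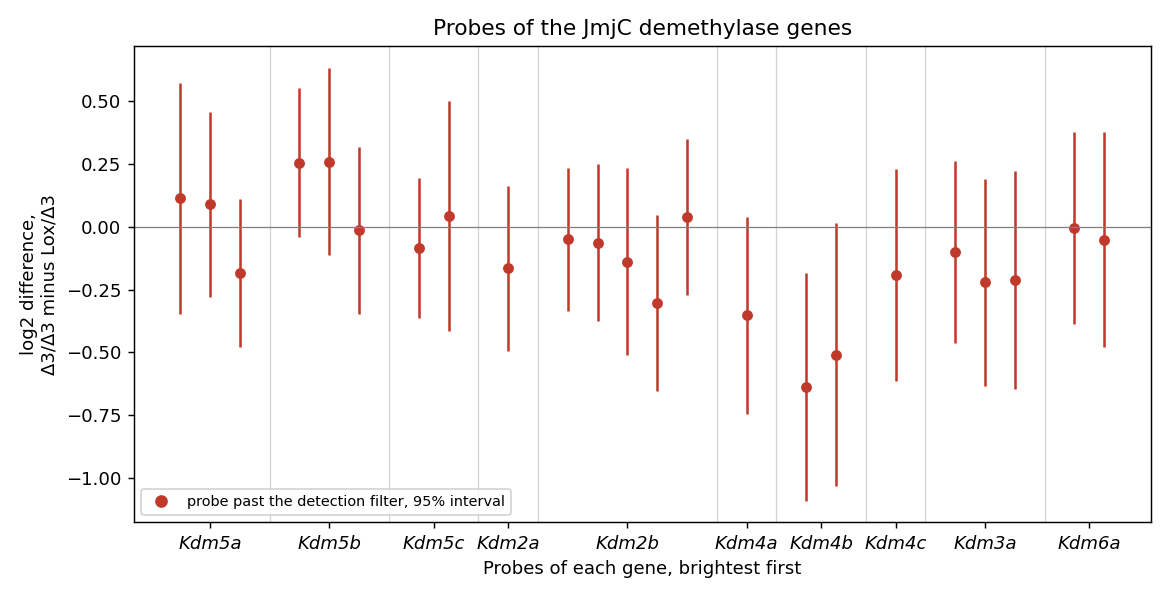
Log2 difference, Δ3/Δ3 minus Lox/Δ3, of the 23 probes past the detection filter, grouped by gene and brightest first, with 95% intervals from limma over all kept probes. The 2 Kdm4b probes lie lowest, and probes of Kdm5a, Kdm5b, Kdm5c and Kdm2b fall on both sides of 0.

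Tested probe by probe, 17 of the 23 kept probes were lower and 6 higher in Δ3/Δ3 cells. None (0) was called by limma over the 19652 kept probes, where 1.15% were called, and 1 had an unadjusted p under 0.05, against 16.4% of all kept probes. The arrays were separate for 3 of the 23, against 22.2% of all kept probes. Of the 7 genes with more than 1 kept probe, 3 (Kdm4b, Kdm3a and Kdm6a) had all of them on the same side.

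The rest of the JmjC family showed no call either. Of 21 further JmjC genes, 20 had a probe and 17 were tested, 5 of them higher and 12 lower, between -0.33 and 0.33, with a median of -0.02. None (0) was called in limma, had an unadjusted p under 0.05 or had separate arrays, against 1.31%, 18.2% and 23.8% of all genes. Kdm6b, which shares its substrate with Kdm6a, was at -0.06, and Uty, the Y-linked relative of Kdm6a, at -0.10 (limma adjusted p = 0.861 and 0.813). Jarid2, a catalytically inactive relative that works with Polycomb, was at -0.33, Jmjd1c at -0.33 and the X-linked lysine 9 demethylase gene Phf8 at -0.30 (limma adjusted p = 0.413, 0.312 and 0.360). Kdm5d, Kdm4d and Tyw5 had probes below the filter. Kdm1b, which encodes the other flavin-dependent demethylase of lysine 4 and is known from oocytes, read 327, 320 and 519 in Δ3/Δ3 cells and 511, 405 and 484 in Lox/Δ3 cells. These are the signals of its brightest probe, ILMN_3007898. Its groups overlapped through Δ3/Δ3 array 3, and its difference was -0.22 ± 0.22 (SE; limma adjusted p = 0.657), between -0.46 and -0.04 when single arrays were left out. The further kept Kdm1b probes, ILMN_1237236 and ILMN_2632778, were weaker and also lower, at -0.25 and -0.10 (limma adjusted p = 0.545 and 0.826 over kept probes). The remaining Kdm1b probes were detected on no array.

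Several of the 10 genes, KDM3A, KDM4B, KDM4C and KDM5B, are known in human cells as targets of the hypoxia-inducible factors, which bind the core ACGTG or GCGTG. The mouse genes did not share a direction here, with Kdm5b at 0.26, Kdm3a at -0.10, Kdm4c at -0.19 and Kdm4b at -0.64. Of 16 listed hypoxia targets 15 were tested, 9 higher and 6 lower, with a median of 0.05. None (0) of these was called in limma or had an unadjusted p under 0.05, and 1 had separate arrays, against 1.31%, 18.2% and 23.8% of all genes. Pdk1, a kinase that limits pyruvate entry into mitochondria, was at -0.22 and the angiogenic factor gene Vegfa at -0.53 (limma adjusted p = 0.420 and 0.456). The SE of these differences ran from 0.13 for Pdk1 to 0.63 for Ndrg1, so the lack of calls does not mean that all targets were steady. Ndrg1 read 8.86, 10.01 and 10.25 on the Δ3/Δ3 arrays and 8.33, 8.92 and 10.88 on the Lox/Δ3 arrays, highest on array 3 of both genotypes. RefSeq promoter windows were matched by symbol for 7 of the 10 genes, and for Kdm5b and Kdm4c the 250 bases before the annotated start (GRCm38.p6, the window with most CpG dinucleotides where a gene had several) are shown, with each match to the core in capitals on either strand. They lie at chr1:134559928-134560177 and chr4:74251629-74251878, both on the + strand.
Kdm5b: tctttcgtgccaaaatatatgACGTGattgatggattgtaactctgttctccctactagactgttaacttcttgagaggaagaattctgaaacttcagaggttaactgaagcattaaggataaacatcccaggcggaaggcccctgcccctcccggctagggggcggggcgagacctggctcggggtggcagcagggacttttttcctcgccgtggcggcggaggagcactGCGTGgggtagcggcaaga
Kdm4c: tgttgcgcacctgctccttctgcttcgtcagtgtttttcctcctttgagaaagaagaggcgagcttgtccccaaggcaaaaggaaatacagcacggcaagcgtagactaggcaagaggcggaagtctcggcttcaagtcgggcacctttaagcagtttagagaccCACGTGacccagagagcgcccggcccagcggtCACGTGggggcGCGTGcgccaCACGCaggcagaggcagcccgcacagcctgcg
The Kdm5b stretch holds 2 matches and the Kdm4c stretch 6, of which 4 are the 2 strands of a pair of palindromes, CACGTG. Of all 32851 windows of this length, 38.6% hold at least 1 match, so a match is common and describes the letters, not a site. That share is not a like background for the members, since the core itself contains CG. The members' windows with most CpG dinucleotides hold 10 to 38 of them, against a median of 6 over all windows. Of the 7 matched genes, 4 hold a match in the window with most CpG dinucleotides, Kdm2b and Kdm6a being the others. That window of Kdm5c, Kdm4a and Kdm3a holds none (0). Another Kdm3a window, chr6:71632918-71633167, holds 1.

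**Figure D4:**
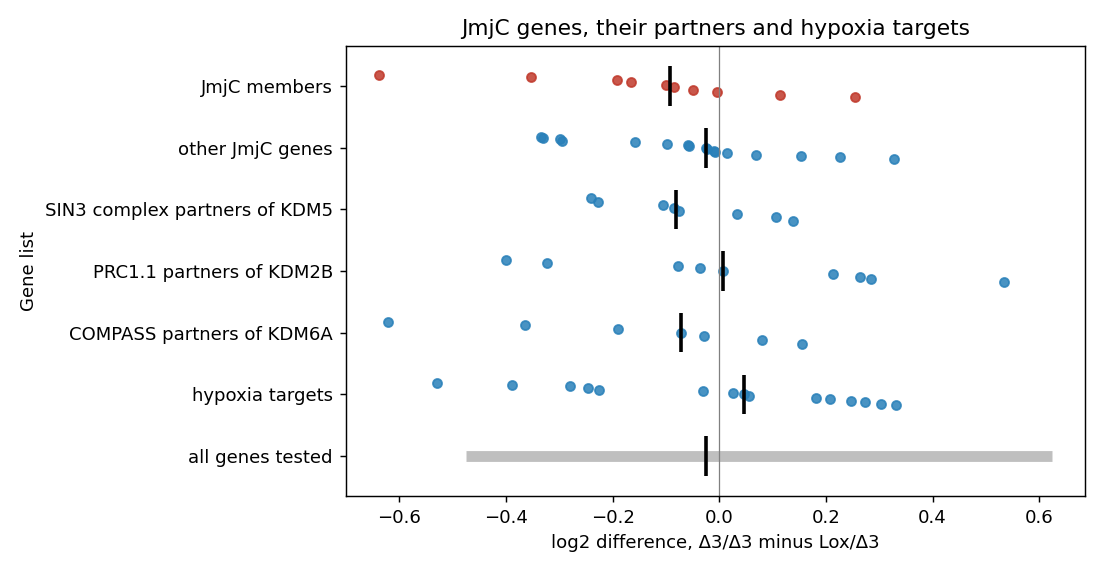
Log2 difference, Δ3/Δ3 minus Lox/Δ3, of the tested genes of each list, 1 point a gene, with the list median as a black line; the grey bar spans the 5th to the 95th percentile of all 10712 genes, from -0.47 to 0.62. Apart from Kdm4b, Ncoa6 and Vegfa, the points lie inside that span.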

How the data were processed

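Total RNA of 6 samples was labelled as biotinylated cRNA for 1-colour Illumina bead arrays, per the labels' protocols. The authors' deposited non-normalized table gives intensity on a linear scale for every probe on each array, with a detection p-value in the next column. Every deposited p-value column fell with the signal in the column to its left, with 0 rank violations, and was taken as that array's. The authors' value table holds the same intensity values times 1 constant per array, from 11.9 to 13.6, which set each median to 1000. How signals and detection p-values were computed is not given in the sources used here.

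Background was corrected by the nec function of limma (offset 16) before quantile normalization and log2 transformation. The offset pulls differences of weak genes, here Kdm5a, Kdm5c and Kdm4a, toward 0. Probes detected (p under 0.05) on at least 3 of 6 arrays were kept, 19652 in all, and named from the platform annotation updated through RefSeq symbols: of 45281 probes 34885 had 1 symbol, 18 several and 10378 none. Each gene was tested by its brightest kept probe with limma (lmFit and eBayes, genotype as single term, two-sided, Benjamini-Hochberg over 10712 genes), checked on simulated data. Probe sequences were not used, so cross-hybridisation to relatives was not examined. The 10 genes and the lists were chosen with earlier results of these data known. The text names all members with their probes, Kdm1a, Kdm1b, Kdm6b, Uty, Jarid2, Pou5f1 and Nanog. In each list it also names the called genes or else the 2 with the smallest p. Col1a1, Krt8, Krt18, Dppa5a, Ndrg1, Gata6, Sox17, Col4a1, Lama1 and Dab2 were named after their values were seen. Alternatives changed the background correction, offset, normalization, filter, probe choice, weights, prior, replicate block and single arrays. R 4.3.3, limma 3.58.1, Python 3.11.15 and matplotlib 3.10.9 were used.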

Additional observations from a re-analysis of the deposited data

How the results depend on the processing

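No member was called under any of the 17 alternatives or probe by probe (0 each time). With any single Δ3/Δ3 array left out no gene at all was called (0), so those fits say nothing particular to the members. The smallest limma adjusted p of any member was 0.0708, that of Kdm4b with the replicate number as a block. The directions of Kdm5b, Kdm5c, Kdm2a, Kdm4a and Kdm4b held under every alternative that gave a value; Kdm4a gave none with detection p under 0.01 on all 6 arrays. Small differences changed sign: Kdm5a to -0.077 without Δ3/Δ3 array 3, Kdm2b to 0.0047 without Lox/Δ3 array 1, Kdm4c to 0.0039 without Δ3/Δ3 array 1, Kdm3a to 0.027 without Δ3/Δ3 array 2, and Kdm6a to 0.015 with cyclic loess, 0.12 without Δ3/Δ3 array 2, 0.070 without Lox/Δ3 array 1 and 0.028 without Lox/Δ3 array 2. With single arrays left out Kdm5a lay between -0.077 and 0.32, Kdm2b between -0.11 and 0.0047, Kdm4c between -0.33 and 0.0039, Kdm3a between -0.22 and 0.027 and Kdm6a between -0.13 and 0.12. The cause of these turns was not tested. Median scaling moved the median of all genes to -0.10, and the members' median to -0.19. The count of all genes called, 140, became 261 with median scaling, 24 with no filter, 60 with the stricter filter, 511 with array weights and 0 to 283 when single arrays were left out. Without any 1 of the Δ3/Δ3 arrays Kdm1a stayed between -1.64 and -1.45 but was not called (limma adjusted p from 0.0758 to 0.0937). Of the kept probes 226 were called, and 7 with no filter. The replicate block gave 371 called genes. The labels share replicate numbers 1 to 3. Deviations of same-numbered arrays correlated across genes at 0.36, 0.067 and 0.40, and those of differently numbered arrays at -0.50 to 0.29. Lox/Δ3 arrays 1 and 3 correlated best with the Δ3/Δ3 array of the same number, and Lox/Δ3 array 2 with Δ3/Δ3 array 1. These values do not settle whether the numbers mark pairs. The main fit took the arrays as unpaired, so any variation shared by number stayed in its error. Signal over background limits Kdm5a, Kdm5c and Kdm4a most, and 3 arrays per genotype limit every interval.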
